A study of Mus musculus with 12 samples.

Results

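The receptors and killing genes of natural killer (NK) cells were examined in lineage-depleted bone marrow, as 10 named genes: Ncr1, Klrk1, Klrd1, Cd244a, Slamf7, Itga2, Prf1, Gzmb, Ccl5 and Xcl1. Each is measured by 1 row of the array, called a transcript cluster, that names no other gene, so all 10 of 10 were found among 19937 genes with such a row. The genes were picked by name, with earlier results of these arrays known. Arrays came from 6 E4bp4-/- mice and 6 E4bp4+/+ mice, and no further allele, strain, sex or age is given in the sources used here. E4bp4 is also called Nfil3. It encodes a transcription factor with a basic leucine zipper, without which most NK cells fail to develop. Hind leg marrow was depleted with magnets of cells that carry Ter119, GR1, CD11b, B220, CD2 or NK1.1, and RNA of what was left was hybridised to Mouse Gene 1.0 ST arrays. Both genotypes were depleted in this way, and NK1.1 is carried by mature NK cells of many laboratory strains. Values are log2 levels, and the labels do not name a batch.

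NK cells kill infected or transformed cells when signals from activating receptors outweigh those from inhibitory ones. Ncr1 (NKp46), Klrk1 (NKG2D) and, paired with NKG2 partners, Klrd1 (CD94) are such receptors. Killing is carried out by granules, where perforin opens a way for granzymes into the target. NK cells also release chemokines such as those encoded by Ccl5 and Xcl1, which draw T cells, monocytes and dendritic cells. Several of the genes are also used by other marrow cells: Itga2 by platelets and megakaryocytes, Gzmb by mast cells and, in humans, plasmacytoid dendritic cells, and Slamf7 by plasma cells.

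The targeted gene and the cells were checked on the same arrays. Nfil3 had a lowest, median and highest level of 6.34, 6.38 and 6.92 in E4bp4-/- marrow. In E4bp4+/+ marrow these were 6.94, 7.11 and 7.66, so the genotypes did not overlap. Its difference was -0.68 ± 0.13 log2 (SE), with an exact permutation p of 0.00216 and a limma adjusted p of 0.140. The targeted gene itself thus did not pass the adjusted threshold used below. The NK1.1 gene Klrb1c averaged 4.22 ± 0.10 in E4bp4-/- marrow and 4.17 ± 0.075 in E4bp4+/+ marrow (SD, n = 6 each), and it lay below the 20th percentile of the array on all 12 arrays. Kit and Cd34, markers of progenitors picked after their values were seen, stood at mean percentiles of 95.1 and 96.3 over the 12 arrays. The 20th percentile, the low end named in the study's own filter, ran from 4.93 to 4.99 over the arrays, and the median from 6.50 to 6.62. E4bp4-/- replicate 1 stood apart, with the X-linked Xist at 6.08, against 12.1 or more on the other arrays, and the granulocyte marker Ly6g at 6.55, against at most 5.31 elsewhere. The mean of 4 sex-linked genes, Xist among them, was 7.03 on this array, against 6.33 to 6.46 elsewhere. The Y-linked Kdm5d and Eif2s3y differed by 0.42 ± 0.35 and 0.51 ± 0.51 log2 (SE) between the genotypes. Both differences include E4bp4-/- replicate 1, and without it the difference of the 4 genes' list means was 0.002 in place of 0.11 log2. With Xist low and the mean of the 4 genes high, this array reads as male. The other arrays of both genotypes, high in Xist, read as female. The labels do not give the sex of the mice, and no test was made of it. Results that E4bp4-/- replicate 1 moves are therefore also given without it, a choice made after the values were seen.

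RefSeq promoter windows of build GRCm38.p6, from 250 bases before to 50 after each gene's start, were at hand for 8 of the 10 genes. Klrd1 and Ccl5 had no entry. The motif TTANGTAA, the core bound by E4bp4 and its PAR bZIP relatives, was searched on both strands and stood in 0 of the 8 genes' windows, against 2.32% of the 32851 windows in the table. The shorter TANGTAA, which the longer motif contains, was also in 0 of 8, against 7.39% of windows. TGTGGT, the core bound by Runx factors, stood in the windows of 5 of the 8 genes (Ncr1, Klrk1, Prf1, Gzmb and Xcl1), against 16.8% of windows. AGGTGT, a core bound by T-box factors, stood in that of Prf1 alone among the 8, against 13.7% of windows. The counts are of genes, which had 9 windows between them, while the percentages are of windows. These matches are descriptions of letters in short windows and do not show binding. The windows of Ncr1, a receptor of NK cells and some innate lymphoid cells, of the killing genes Prf1 and Gzmb, and of Itga2, which had the largest difference of the 10 between the genotypes, are shown 5′ to 3′, with matches to TGTGGT in capitals on either strand, and likewise those to AGGTGT.
Ncr1, chr7:4337465-4337764, plus strand: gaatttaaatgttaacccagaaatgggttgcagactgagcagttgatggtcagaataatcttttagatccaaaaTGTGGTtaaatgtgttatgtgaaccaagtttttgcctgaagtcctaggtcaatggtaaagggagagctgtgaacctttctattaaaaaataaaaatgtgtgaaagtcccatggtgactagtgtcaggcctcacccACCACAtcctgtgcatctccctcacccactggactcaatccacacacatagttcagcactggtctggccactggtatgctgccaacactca
Prf1, chr10:61297586-61297885, plus strand: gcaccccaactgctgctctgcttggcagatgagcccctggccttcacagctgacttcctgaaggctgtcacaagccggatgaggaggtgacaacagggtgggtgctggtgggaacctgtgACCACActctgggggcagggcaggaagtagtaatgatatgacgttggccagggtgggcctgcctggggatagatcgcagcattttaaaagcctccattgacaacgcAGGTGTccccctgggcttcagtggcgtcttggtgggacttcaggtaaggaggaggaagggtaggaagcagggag
Gzmb, chr14:56262285-56262584, minus strand: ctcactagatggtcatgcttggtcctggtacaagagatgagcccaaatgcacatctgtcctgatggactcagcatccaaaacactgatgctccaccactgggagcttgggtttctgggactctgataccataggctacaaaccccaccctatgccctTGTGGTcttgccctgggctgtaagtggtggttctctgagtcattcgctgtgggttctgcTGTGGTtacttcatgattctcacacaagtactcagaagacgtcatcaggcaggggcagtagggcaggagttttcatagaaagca
Itga2, chr13:114932051-114932350, minus strand: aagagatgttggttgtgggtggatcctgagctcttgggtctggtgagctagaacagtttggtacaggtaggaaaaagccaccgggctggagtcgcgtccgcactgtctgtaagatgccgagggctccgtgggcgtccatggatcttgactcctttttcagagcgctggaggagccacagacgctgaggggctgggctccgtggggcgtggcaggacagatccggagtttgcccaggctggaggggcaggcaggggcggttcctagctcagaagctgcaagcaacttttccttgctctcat
In these windows TGTGGT or its complement began 176 and 41 bases before the start of Ncr1, 130 bases before that of Prf1, and 93 and 34 bases before that of Gzmb. Ncr1 had another, overlapping window from base 4337474, not shown, in which the same matches began 185 and 50 bases before the start. The AGGTGT of Prf1 began 24 bases before its start. The Itga2 window held none of the 4 motifs and was 59.3% G and C, against 43.3% for Ncr1.

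The 10 genes lay near the low end of the arrays, near their median or above it. Ncr1, Klrk1, Klrd1 and Xcl1 lay near the low end of every array, at mean percentiles of 24.1, 23.1, 20.5 and 27.3, and 0 of these 4 reached the median on any array. Slamf7 and Prf1 lay near the median, at mean percentiles of 48.5 and 50.3. Ccl5, Gzmb, Cd244a and Itga2 lay above the median on all 12 arrays, at mean percentiles of 57.8, 58.2, 58.6 and 65.1. At least the 20th percentile was reached on all 12 arrays by 8 of the 10 genes, on 11 by Klrk1 and on 8 by Klrd1. Different probes hybridise differently, so these positions place each gene within its array and do not rank the genes' transcripts.

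**Figure D1:**
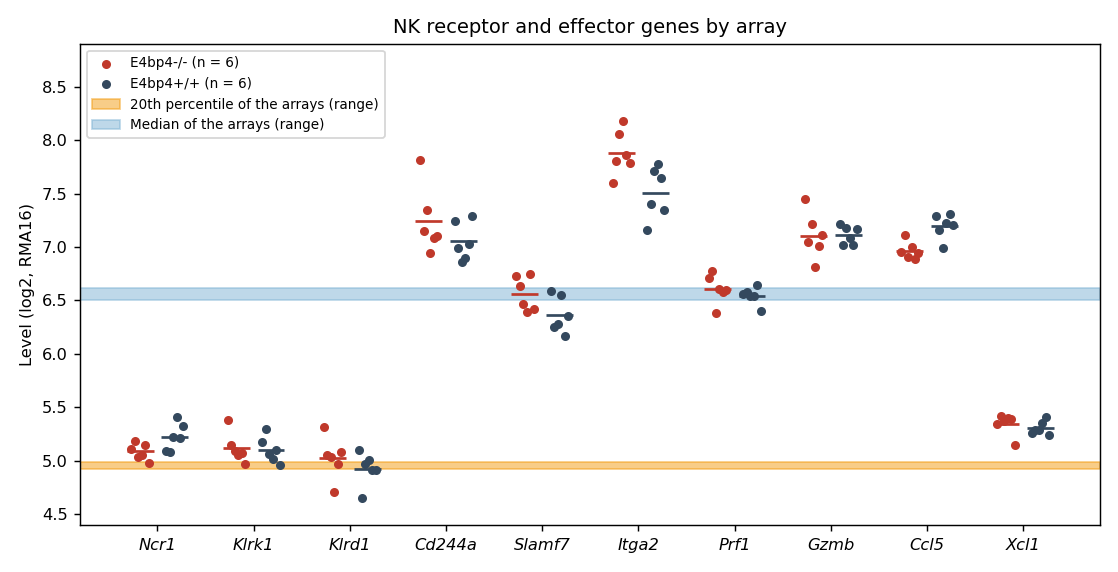
Log2 level of each of the 10 genes on every array, E4bp4-/- points left of E4bp4+/+ points, with a line at each genotype's mean; bands show the range of the arrays' 20th percentiles (4.93 to 4.99) and medians (6.50 to 6.62). Ncr1, Klrk1, Klrd1 and Xcl1 sit by the lower band, and the means of Itga2 and Ccl5 differ most between the genotypes, in opposite directions, with some overlap of the arrays.

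Between the genotypes, Itga2 was higher in E4bp4-/- marrow by 0.37 ± 0.12 log2 (SE) and Ccl5 was lower by -0.23 ± 0.058 log2. Slamf7 (0.20 ± 0.090) and Ncr1 (-0.14 ± 0.061) followed, and the other 6 genes differed by -0.01 to 0.19 log2. In limma's moderated test over 29541 transcript clusters, 0 of the 10 genes passed a Benjamini-Hochberg adjusted p of 0.05, and 0 transcript clusters did (0%). At an unadjusted p under 0.05 there were 4 of 10 genes, namely Itga2 and Slamf7 on the higher side and Ccl5 and Ncr1 on the lower, against 14.9% of all transcript clusters tested (8.47% higher and 6.39% lower). Of all transcript clusters at that p, 57.0% were higher in E4bp4-/- marrow, but 22.0% after centring each array on its median and 46.9% after quantile normalisation. Without E4bp4-/- replicate 1 the count was 2 of 10 genes, Itga2 and Ccl5, and these 2 stayed at an unadjusted p under 0.05 under each of 21 alternatives. The arrays of the genotypes overlapped for all 10 genes, while they did not for 1.27% of all transcript clusters. The median difference was 0.05 log2 over the 10 genes and 0.02 over all transcript clusters tested. In bulk RNA, fewer cells of a type and less RNA per cell cannot be told apart.

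**Figure D2:**
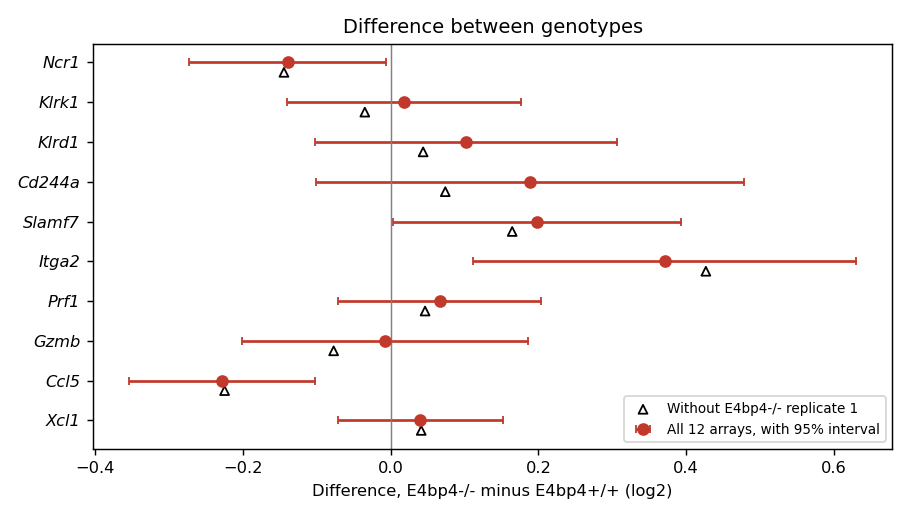
Difference in log2 level, E4bp4-/- minus E4bp4+/+, for each gene, with 95% intervals from limma (points) and the difference of means without E4bp4-/- replicate 1 (triangles). The intervals of Itga2, Slamf7, Ccl5 and Ncr1 exclude 0 before adjustment, and without that array Klrk1 turns to -0.03 and Cd244a comes to 0.07.

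Among the activating receptors, Ncr1, whose product NKp46 is a surface marker of NK cells and some innate lymphoid cells, had a lowest, median and highest level of 4.98, 5.08 and 5.19 in E4bp4-/- marrow, against 5.08, 5.22 and 5.41 in E4bp4+/+ marrow. Of the E4bp4-/- arrays, 3 lay below every E4bp4+/+ array, and 4 E4bp4+/+ arrays lay above every E4bp4-/- array. The limma adjusted p was 0.321, and the exact two-sided permutation p of the 12 values was 0.0476 (unadjusted p in limma 0.0415). The means stood 0.13 and 0.28 log2 above the 20th percentile in E4bp4-/- and E4bp4+/+ marrow.

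Klrk1, the receptor NKG2D for stress-induced ligands, had a lowest, median and highest level of 4.97, 5.09 and 5.39 in E4bp4-/- marrow, against 4.96, 5.08 and 5.30 in E4bp4+/+ marrow. The ranges lay on top of each other, and the difference of 0.02 log2 had a 95% interval of -0.14 to 0.18 (limma adjusted p 0.929). Klrd1, or CD94, the common partner of the NKG2A and NKG2C chains, had 4.71, 5.04 and 5.32 in E4bp4-/- marrow, against 4.65, 4.94 and 5.10 in E4bp4+/+ marrow. It reached the 20th percentile on 5 of 6 E4bp4-/- arrays and 3 of 6 E4bp4+/+ arrays. Its difference of 0.10 log2 had an interval of -0.10 to 0.31 (limma adjusted p 0.630). Klrk1 and Klrd1 are neighbours among the protein-coding genes of chromosome 6 in RefSeq.

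The 2 receptors of the SLAM family lay near or above the median of the arrays. Cd244a encodes 2B4, a receptor for CD48 that is also carried by some progenitors and myeloid cells. Its lowest, median and highest levels were 6.95, 7.13 and 7.81 in E4bp4-/- marrow, against 6.86, 7.01 and 7.29 in E4bp4+/+ marrow. The difference was 0.19 ± 0.13 log2 (limma adjusted p 0.523), and 0.07 ± 0.093 without E4bp4-/- replicate 1, the array with the highest value. Slamf7 encodes CRACC, a self-binding receptor of NK cells and plasma cells. It had 6.39, 6.55 and 6.75 in E4bp4-/- marrow, against 6.17, 6.32 and 6.59 in E4bp4+/+ marrow. On 3 E4bp4-/- arrays it lay above every E4bp4+/+ array, and on 4 E4bp4+/+ arrays it lay below every E4bp4-/- array. The difference of 0.20 log2, or 1.15-fold, had a limma adjusted p of 0.332 and an exact permutation p of 0.0671. Without E4bp4-/- replicate 1 the Slamf7 difference was 0.16 ± 0.092 log2 (limma adjusted p 0.448). Only Ly9, another SLAM family gene, stands between Slamf7 and Cd244a among the protein-coding genes of chromosome 1.

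Itga2 encodes the integrin alpha 2 chain, part of a collagen receptor on NK cells and platelets. It had the largest difference of the 10 genes. Its lowest, median and highest levels were 7.60, 7.83 and 8.18 in E4bp4-/- marrow, against 7.16, 7.53 and 7.78 in E4bp4+/+ marrow. On 5 of 6 E4bp4-/- arrays it lay above every E4bp4+/+ array, and on the remaining array, replicate 1, it lay inside their range. The means were 7.88 ± 0.21 and 7.51 ± 0.24 (SD, n = 6 each) in E4bp4-/- and E4bp4+/+ marrow, a 1.29-fold difference. The limma adjusted p was 0.223 and the exact permutation p 0.0195. Without E4bp4-/- replicate 1 the difference was 0.43 ± 0.12 log2 (limma adjusted p 0.214). Itga2 lies on chromosome 13, as Nfil3 does, beside Itga1 among the protein-coding genes.

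Genes of megakaryocytes and platelets, which also carry Itga2, stood higher on the same arrays. All 9 of the listed genes with a row of their own, of 14 listed, had positive differences, with a median of 0.41 log2, and 0 passed the adjusted threshold. Without E4bp4-/- replicate 1 all 9 stayed positive, with a median of 0.49 log2. Itga2b, the platelet integrin alpha IIb, differed by 0.41 ± 0.11 log2, its partner Itgb3 by 0.62 ± 0.20, and the platelet receptor Treml1 by 0.55 ± 0.17 (limma adjusted p 0.184, 0.219 and 0.214). The mean of the 9 genes ran from 9.36 to 10.35 in E4bp4-/- marrow, against 9.24 to 9.87 in E4bp4+/+ marrow, and all 9 were above the 20th percentile on every array. E4bp4-/- replicate 4 had the highest Itga2 level and the highest list mean. Replicate 1 had the lowest of both among the E4bp4-/- arrays, and E4bp4+/+ replicates 1, 2 and 6 had the 3 lowest of both among the E4bp4+/+ arrays. What part these genes' cells had in the Itga2 difference was not tested.

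**Figure D3:**
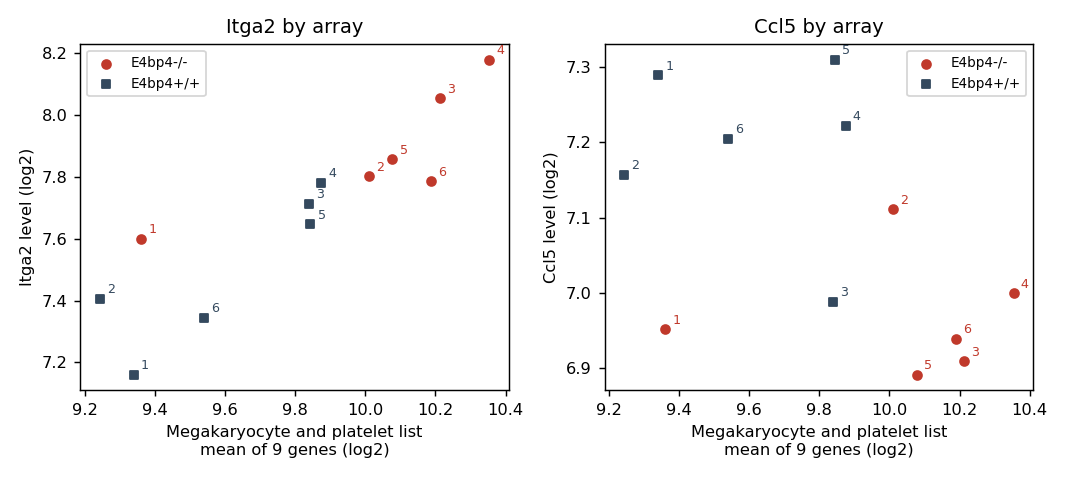
Level of Itga2 (left) and Ccl5 (right) on each array, numbered by replicate, against the mean log2 level of 9 megakaryocyte and platelet genes on that array; E4bp4-/- circles and E4bp4+/+ squares. Arrays with a high list mean, up to 10.35, also have high Itga2, while Ccl5 lies at 6.89 to 7.11 on E4bp4-/- arrays and at 6.99 to 7.31 on E4bp4+/+ arrays, with some overlap.

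The granule genes showed no separation. Prf1, perforin, had a lowest, median and highest level of 6.38, 6.60 and 6.78 in E4bp4-/- marrow, against 6.40, 6.55 and 6.64 in E4bp4+/+ marrow. The 2 highest and the lowest of the 12 values were all E4bp4-/- arrays. Its difference of 0.07 log2 had a 95% interval of -0.07 to 0.20 (limma adjusted p 0.646). Gzmb, granzyme B, a protease that starts apoptosis in the target cell, had 6.81, 7.08 and 7.45 in E4bp4-/- marrow, against 7.02, 7.13 and 7.22 in E4bp4+/+ marrow. The E4bp4-/- values enclosed those of E4bp4+/+ marrow, with SDs of 0.22 and 0.085. The difference was -0.01 log2 with an interval of -0.20 to 0.19 (limma adjusted p 0.978), and its sign turned when any 1 of 6 arrays was left out.

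Of the chemokines, Ccl5 (RANTES), made by T cells, NK cells and platelets, had the lowest p of the 10 genes. Its lowest, median and highest levels were 6.89, 6.95 and 7.11 in E4bp4-/- marrow, against 6.99, 7.21 and 7.31 in E4bp4+/+ marrow. On 4 E4bp4-/- arrays it lay below every E4bp4+/+ array, and 5 of 6 E4bp4+/+ arrays lay above every E4bp4-/- array. The exception was E4bp4+/+ replicate 3, at 6.99. The means were 6.97 ± 0.080 in E4bp4-/- and 7.20 ± 0.12 in E4bp4+/+ marrow (SD, n = 6 each), a 1.17-fold difference with a 95% interval of -0.35 to -0.10 log2. The limma adjusted p was 0.178 and the exact permutation p 0.00649, and 1.04% of all transcript clusters had a lower unadjusted p. Leaving out single arrays gave differences from -0.27 to -0.21 log2. The platelet genes given above, whose cells also hold Ccl5, differed in the other direction, and their part in the Ccl5 value was not tested.

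Xcl1, lymphotactin, which draws cross-presenting dendritic cells through the receptor Xcr1, had a lowest, median and highest level of 5.15, 5.39 and 5.42 in E4bp4-/- marrow, against 5.24, 5.29 and 5.41 in E4bp4+/+ marrow. E4bp4-/- replicate 6 was the lowest of all 12 arrays and the other E4bp4-/- arrays lay in or just above the E4bp4+/+ range. The difference of 0.04 log2 had an interval of -0.07 to 0.15 (limma adjusted p 0.742). Xcr1 itself was at 5.55 ± 0.14 in E4bp4-/- and 5.74 ± 0.17 in E4bp4+/+ marrow (SD, n = 6 each), with a limma adjusted p of 0.333.

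E4bp4-/- replicate 1 had the highest value of all 12 arrays for 4 of the 10 genes, Klrd1, Klrk1, Gzmb and Cd244a. No other array was highest for more than 2. After each genotype's mean was taken off, Klrd1 and Gzmb had a Pearson r of 0.86 over the 12 arrays and Gzmb and Cd244a one of 0.84. Without that array these were 0.78 and 0.63. They describe arrays that share a normalisation, and no p is given. On the same array the surface targets of the depletion Itgam (CD11b) and Ly6g (part of GR1) were also highest, at 8.93 and 6.55, against 6.87 to 8.02 and 4.74 to 5.31 on the other E4bp4-/- arrays, and 6.81 to 7.91 and 4.80 to 5.22 on E4bp4+/+ arrays. Their part in these 4 values was not tested. Without replicate 1 the differences were 0.04 ± 0.085 for Klrd1, -0.03 ± 0.060 for Klrk1, -0.08 ± 0.069 for Gzmb and 0.07 ± 0.093 log2 for Cd244a.

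Other genes of the NK pathway were compared from lists chosen by role. Of 33 other NK receptors 28 had a row of their own, and 14 of these, Klrb1c among them, lay below the 20th percentile on all 12 arrays and were not tested. Of the 14 tested, 12 were higher and 2 lower in E4bp4-/- marrow, with a median difference of 0.05 log2, and 0 passed the adjusted threshold. Without E4bp4-/- replicate 1, 8 were higher and 6 lower, and the difference of the list means was 0.01 in place of 0.04 log2. The lowest p-values were those of Klra6, a Ly49 receptor (0.16 ± 0.072 log2), the receptor Cd160 (0.12 ± 0.057) and Cd226, or DNAM-1 (0.30 ± 0.15), with limma adjusted p of 0.318, 0.356 and 0.372. Klra6 reached the 20th percentile on 2 arrays and Cd160 on 1, all of them E4bp4-/- and none E4bp4+/+, so both were tested only through the genotype in which they were higher. Ly49 genes resemble one another, so their signal is uncertain. Cd226, which human platelets also carry, ran from 5.49 to 6.39 in E4bp4-/- marrow, against 5.45 to 5.98 in E4bp4+/+ marrow.

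Of 12 adaptors and signalling genes of these receptors 11 were higher, by a median of 0.12 log2, and 0 of 12 passed the adjusted threshold or an unadjusted p of 0.05. Lcp2 (0.21 ± 0.12 log2), Syk (0.20 ± 0.11) and Plcg2 (0.27 ± 0.16) had the lowest p-values, with limma adjusted p from 0.407 to 0.452. The mean of the list was highest on E4bp4-/- replicate 1, at 8.29, against 7.62 to 8.03 in E4bp4+/+ marrow, and without that array 9 were higher and 3 lower, and the difference of the list means was 0.05 in place of 0.13 log2. Of 19 other granule and killing genes 16 were tested, with 12 higher, 4 lower, a median of 0.03 log2 and 0 past the adjusted threshold. Without E4bp4-/- replicate 1, 9 were higher and 7 lower, and the difference of the list means was 0.01 in place of 0.04 log2. Gzmm, granzyme M, differed by 0.09 ± 0.042 log2, Gzmf by 0.08 ± 0.046 and Rab27a, which docks granules, by 0.26 ± 0.19 (limma adjusted p 0.333, 0.442 and 0.549). Gzma lay below the 20th percentile on all 12 arrays. Nkg7, a granule membrane protein, was at 11.69 ± 0.60 in E4bp4-/- and 11.67 ± 0.34 in E4bp4+/+ marrow (SD, n = 6 each); it and Gzma were picked after their values were seen.

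Of 6 other chemokines and cytokines 2 were higher and 4 lower, with a median of -0.02 log2, and without E4bp4-/- replicate 1 there were 3 each way. Interferon gamma, Ifng, differed by -0.07 ± 0.056 log2, Ccl4 by 0.18 ± 0.16 and Flt3l by -0.08 ± 0.11, and 0 of 6 passed the adjusted threshold. Of 17 ligands, partners and inhibitors of the 10 genes, 9 had a row of their own and 7 were tested, 5 of them higher and 2 lower, or 3 higher and 4 lower without E4bp4-/- replicate 1. With all arrays the 2 lower were Serpinb9, the inhibitor of granzyme B (-0.16 ± 0.067 log2), and Xcr1 (-0.19 ± 0.085), and Ccr1, a receptor for Ccl5, differed by 0.20 ± 0.11. Their limma adjusted p-values were 0.313, 0.333 and 0.420. Over all 29541 transcript clusters tested, 55.9% were higher in E4bp4-/- marrow.

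**Figure D4:**
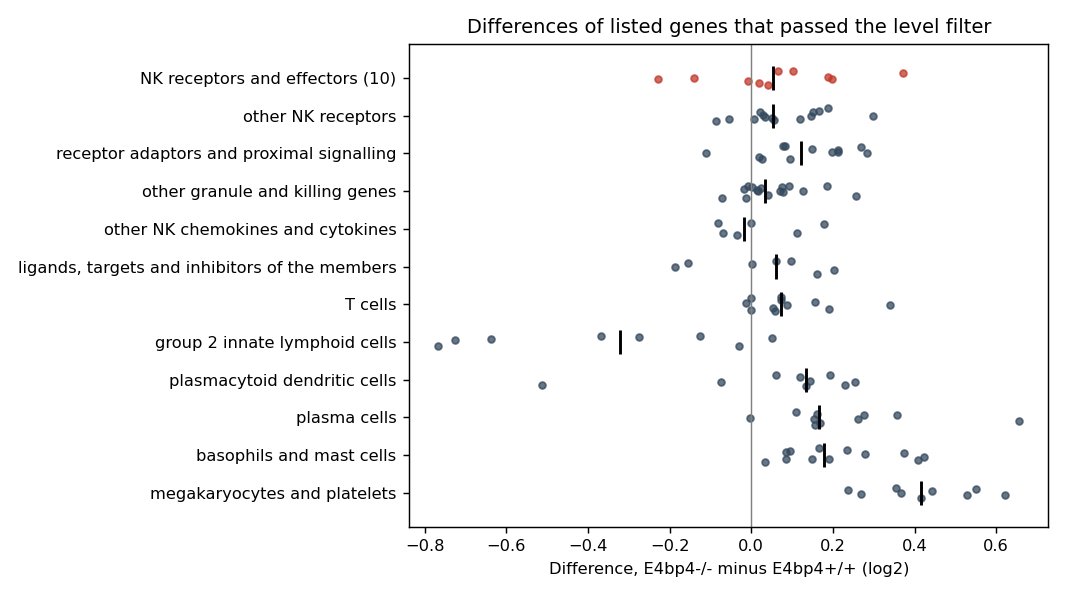
Difference in log2 level, E4bp4-/- minus E4bp4+/+, for each tested gene of the 10 NK receptor and effector genes (top row), of the related NK lists and of lists of other cell types; black bars are medians. Medians of the NK lists run from -0.02 to 0.12, that of megakaryocyte and platelet genes is 0.41 and that of group 2 innate lymphoid cell genes is -0.32.

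Other cells that use these genes were read from marker lists on the same arrays. T cell markers, relevant to Ccl5, Prf1 and Gzmb, numbered 13, of which 2 lay below the 20th percentile on all arrays and 9 reached it on all 12. Of 11 tested, 8 were higher and 3 lower, with a median of 0.07 log2. The list mean, which includes the 2 low genes, ran from 6.013 to 6.072 in E4bp4-/- marrow, against 5.898 to 6.007 in E4bp4+/+ marrow. The gap between these ranges is smaller than the spread of the arrays' medians, 6.50 to 6.62, so it is not read as a separation. Lat, also used by platelets and mast cells, differed by 0.34 ± 0.10 log2, Cd3e by 0.19 ± 0.070 and Cd3g by 0.16 ± 0.063 (limma adjusted p 0.207, 0.258 and 0.291). Cd3g lay near the low end, and it reached the 20th percentile on 5 E4bp4-/- arrays and 1 E4bp4+/+ array. The differences of Lat, Cd3e and Cd3g are opposite in sign to that of Ccl5, and their part in the Ccl5 value was not tested. Of 8 tested genes of group 2 innate lymphoid cells, 7 were lower, with a median of -0.32 log2 and a list mean of 5.98 to 6.35 in E4bp4-/- marrow, against 6.20 to 6.59 in E4bp4+/+ marrow. Il2ra (-0.73 ± 0.16), Gata3 (-0.64 ± 0.13) and Icos (-0.37 ± 0.063) had the lowest p-values, and 0 of 8 passed the adjusted threshold.

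Plasma cell genes, which share Slamf7, had 9 of 10 higher, with a median of 0.16 log2 and list means of 7.57 to 7.95 in E4bp4-/- marrow, against 7.35 to 7.76 in E4bp4+/+ marrow. Prdm1, the regulator of plasma cells, differed by 0.17 ± 0.058 log2, Derl3 by 0.36 ± 0.13 and Irf4 by 0.28 ± 0.11 (limma adjusted p 0.238, 0.260 and 0.285). Basophil and mast cell genes, which share Cd244a and Gzmb, had 12 of 12 higher, by a median of 0.18 log2, with list means of 7.95 to 8.96 in E4bp4-/- marrow, against 7.85 to 8.76 in E4bp4+/+ marrow. Without E4bp4-/- replicate 1, 10 of 12 were higher, and the difference of the list means was 0.12 in place of 0.21 log2. In that list Gata2 differed by 0.17 ± 0.052 log2, Kit, also the progenitor marker named above, by 0.19 ± 0.064 and the chymase Cma1 by 0.09 ± 0.043. Of 4 progenitor genes, Kit among them, 4 were higher, and the difference of their list means was 0.21 log2. Without E4bp4-/- replicate 1 that difference was 0.16 log2. Of 9 plasmacytoid dendritic cell genes 7 were higher and 2 lower, with list means of 7.85 to 8.29 in E4bp4-/- marrow, against 7.77 to 8.17 in E4bp4+/+ marrow, and the difference of the list means was 0.06 log2, or 0.01 without E4bp4-/- replicate 1. In that list Ccr9 differed by -0.51 ± 0.14 log2, Lag3 by 0.14 ± 0.065 and Cox6a2 by 0.23 ± 0.12. In the plasma cell, the basophil and mast cell, and the plasmacytoid dendritic cell lists 0 genes passed the adjusted threshold. The part of these lists' cells in the values of Slamf7, Cd244a and Gzmb was not tested.

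The pattern over arrays was compared for Itga2, Cd244a and Slamf7, the 3 genes with the largest SD over the 12 arrays, genotype difference included. For the correlations each genotype's mean was taken off. Among 17806 other genes with a tested row, those most like Itga2 over the 12 arrays were Lsg1, Ddx55 and Polr3e, each with a Pearson r of 0.96. Those most like Cd244a were Pik3cg, Sccpdh and Itgb2, a leukocyte integrin chain, with r of 0.96, 0.95 and 0.95, and of 0.90, 0.87 and 0.87 without E4bp4-/- replicate 1. Those most like Slamf7 were Msmp, Rbmxl2 and Map3k11, with r of 0.96, 0.90 and 0.89. Each is the highest of many correlations over 12 arrays, so they are given as a description with no p.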

How the data were processed

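RNA of 12 mice was measured on GeneChip Mouse Gene 1.0 ST arrays. The authors deposited log2 levels for 34760 transcript clusters, made with GeneSpring GX version 11 and RMA16, per the series design text among the labels; the log2 scale was inferred from their range, 3.18 to 14.33. Platform annotation named 1 gene for 21640 of them; a gene's row was the one of highest mean. Rows below the 20th percentile of all arrays were left out, which kept 29541. Differences, E4bp4-/- minus E4bp4+/+, were fitted with limma 3.58.1 in R 4.3.3 (lmFit, eBayes, no covariate) and adjusted over all rows; the exact two-sided permutation test of a gene's 12 values ran through 924 assignments in SciPy 1.17.1. In simulated arrays of this size limma found 78% of 100 rows shifted by 0.5 log2. It found 95% of the 100 shifted by 1 log2. Both sets were shifted in the same simulated arrays, with 15 false calls among the unshifted rows. Smaller shifts, such as the 0.37 log2 of Itga2, were not simulated. On the measured arrays Nfil3 differed by -0.68 log2 and did not pass the adjusted threshold (limma adjusted p 0.140). The simulation therefore does not show how often differences like those of the named genes would be found. Genes named from lists were the 3 of lowest p in each, with Klrb1c; likeness was taken for the 3 genes of largest SD over all arrays. Members and lists were chosen with earlier results of these data known. The motifs and the progenitor markers were added after values were seen. Alternatives covered filter, scaling, variance trend, array weights, replicate block and each array left out. With 6 arrays a genotype, array number limits the precision. The labels give separate samples, and the design text separate mice.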

Additional observations from a re-analysis of the deposited data

Results flagged for a closer look

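Of 22 sets of 6 values examined (the 10 genes and Nfil3 in each genotype), 2 held an array whose gap to its nearest neighbour passed Dixon's critical value for 6 values at the 95% level, where chance flags about 1 in 20. Xcl1 in E4bp4-/- replicate 6 was at 5.15, below the other E4bp4-/- arrays. Nfil3 in E4bp4+/+ replicate 1 was at 7.66, above the other E4bp4+/+ arrays.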

How the results depend on the processing

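Of the 10 genes, 0 of those tested passed the adjusted threshold under any of 21 alternatives. All 10 were tested in each, except 6 with a filter at the 50th percentile (not Ncr1, Klrd1, Klrk1 or Xcl1) and 8 with the 20th percentile required on all 12 arrays (not Klrd1 or Klrk1). Over all transcript clusters the count was 0, except 5 with array weights and 0 to 4 with single arrays left out (4 without E4bp4-/- replicate 1, 1 without E4bp4-/- replicate 2 and 1 without E4bp4+/+ replicate 2); these are not among the 10 genes. Leaving out both arrays numbered 1, an alternative added after seeing the data, gave 0. At an unadjusted p under 0.05, also an addition, 4 of the 10 genes became 2 with the replicate number as a block, 3 after median centring or quantile normalisation (without Slamf7, p 0.130 in both), 3 with the 50th percentile filter and 2 to 4 with single arrays left out (2 without E4bp4-/- replicate 1 or E4bp4+/+ replicates 3, 5 or 6). The labels do not say that same-numbered arrays are pairs, and the main fit did not take the numbers as pairs. Same-numbered arrays had correlations of deviations from -0.03 to 0.46, which do not settle whether they were paired. Of the 6 E4bp4-/- arrays, 3 correlated best with their own number. Itga2 did depend on this choice: with the replicate number as a block, its difference of 0.37 log2 had an SE of 0.043 in place of 0.12. Its unadjusted p in limma was then 3.7e-05, and its limma adjusted p 0.173. With the median in place of the 20th percentile, 4 genes and not 8 were at or above it on all arrays. Klrk1 turned to -0.022 after median centring, -0.0059 with array weights and -0.020 without both arrays numbered 1, and ran from -0.035 to 0.056 with single arrays left out. Gzmb ran from -0.077 to 0.052 likewise, and Xcl1 was -8.31e-05 after median centring. The other 7 genes kept their direction wherever tested. The cause was not tested. Each gene had 1 row, so averaging rows could not be tried. Ncr1, Klrk1, Klrd1 and Xcl1 lie near the 20th percentile, where signal close to background can limit precision.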
